A study of Mus musculus with 24 samples.

Results

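The genes of the cytosolic ribosome were examined in C2C12 cells, an established mouse myoblast line, in growth or differentiation medium at 2 oxygen levels. Members are the rows of the deposited gene table named as proteins of the large subunit (Rpl), the small subunit (Rps) or the acidic stalk (Rplp), with Rpsa. That gave 81 of the 24043 symbols, 49 of the large subunit and 32 of the small one. The rule uses symbols alone.

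RNA-seq libraries of 4 groups were compared, and each group has replicates A and B. Normoxic growth medium (GM_NOR) was DMEM with 10% FBS and Penn-Strep at 21% oxygen, and hypoxic growth medium (GM_HYP) was the same at 2% oxygen. Normoxic differentiation medium (DM_NOR) was DMEM with 2% Horse Serum and ITS at 21% oxygen, and hypoxic differentiation medium (DM_HYP) was the same at 2% oxygen. Every group comes from this 1 line and carries no introduced allele per the labels, and the time spent in differentiation medium or at low oxygen is not given in the sources used here. The submitters call A and B biological replicates and say nothing of separate cultures, so the p-values measure the spread between these libraries.

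A ribosome joins 1 RNA-rich large and 1 small subunit, and each ribosomal protein sits in a single place in it, the stalk proteins apart. Cells therefore make these proteins in near-matched amounts, and their messages are among the most abundant of a growing cell. The messages are known to start at a run of pyrimidines, the terminal oligopyrimidine (TOP) sequence, which ties their translation to nutrient signalling through the mTORC1 kinase. Myoblasts that leave the cell cycle and fuse into myotubes are known to lower the making of new ribosomes.

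The libraries summed to between 480018 and 534167 FPKM (fragments normalised to transcript length and library total), and their relative depth, read from the steps between low values, ran from 0.64 to 1 of the deepest library. Absolute depth is unknown. Markers fixed for the report tell the groups apart. The summed FPKM of 8 muscle genes, Myog, Ckm and Acta1 among them, was 344 to 415 in GM_NOR, 7688 to 7699 in DM_NOR, 98.2 to 105 in GM_HYP and 59.4 to 82.0 in DM_HYP. The sum in DM_HYP thus stayed far below that of DM_NOR in the same medium. Between GM_HYP and DM_HYP the sum and the median of the 8 genes went opposite ways. Their median log2(FPKM + 1) was 1.17 and 1.19 in GM_HYP A and B and 2.68 and 2.12 in DM_HYP. It was 8.78 and 8.81 in DM_NOR. Differentiation in normoxia or in hypoxia therefore names a change of medium here, not a state that the cells reached. The summed FPKM of 10 hypoxia response genes was 1339 to 1369 in GM_NOR, 2050.0 to 2394 in DM_NOR, 9046 to 9237 in GM_HYP and 8147 to 10267 in DM_HYP. The sum of 12 cell cycle genes was 156 in DM_HYP A and 469 in DM_HYP B, against 123 to 126 in DM_NOR, 215 to 241 in GM_HYP and 353 to 367 in GM_NOR. DM_HYP A and B also differed by over 2-fold at 613 of the 12389 tested genes, against 56 to 71 genes in the other groups. The 6 adipocyte genes summed to 2.08 to 19.8 FPKM, with Plin1, Lep and Cidec at 0 in every library. The 6 genes of macrophages and blood cells summed to 3.73 to 54.7 FPKM, with Emr1 at 0 in every library and Cd68 higher in DM_HYP than elsewhere. The part of these marker differences in the results was not tested.

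The ribosomal protein genes took between 15.6% and 26.2% of all FPKM in a library. The share was 20.2% and 19.7% in GM_NOR A and B. It was 15.6% and 16.7% in DM_NOR. It was 25.7% and 26.2% in GM_HYP, above every other library. DM_HYP gave 19.7% and 15.97%, a gap between replicates wider than in any other group. The group means were 20.0% ± 0.332, 16.2% ± 0.736, 25.9% ± 0.411 and 17.9% ± 2.67 (SD, n = 2), in the order GM_NOR, DM_NOR, GM_HYP and DM_HYP. With small RNA genes left out of the sums the means were 20.8%, 16.9%, 26.8% and 18.6%, in the same order of groups. In bulk RNA, fewer cells of a type and less RNA per cell cannot be told apart.

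**Figure D1:**
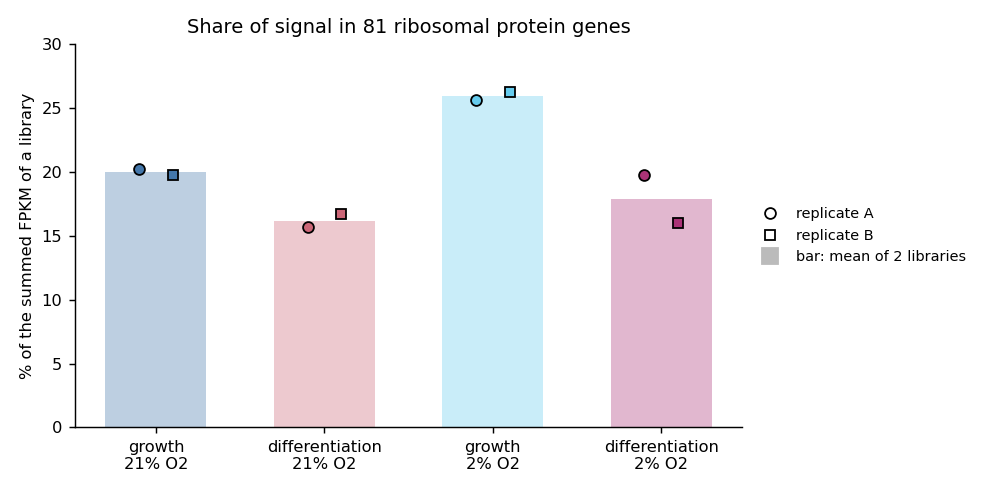
Share of the summed FPKM of each library (%, vertical axis) held by the 81 ribosomal protein genes in the 4 groups; circles are replicate A, squares replicate B, and bars the mean of the 2 libraries. GM_HYP stands highest at 25.7% and 26.2%, and DM_HYP has the widest gap, 19.7% against 15.97%.

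Of the 81 genes, 78 reached a group mean of at least 1 FPKM and were tested, 47 of the large and 31 of the small subunit. Because FPKM is per length, levels can be set roughly side by side between genes. Rows such as Rps27 and Rpl34, whose reads may be split with a copy, are counted here as listed, so their places are uncertain. By the mean FPKM over the 8 libraries, 49 of the 78 lay above 1000, 26 between 100 and 1000, and 3 below 100. The median was 1249.2 FPKM. The highest was Rplp1, a stalk protein, at 5335 FPKM, followed by Rpl41 at 4775 and Rps15 at 2615. Ribosomal protein genes made up 27 of the 50 and 53 of the 100 most abundant genes of the table. At the low end stood Rpl30 at 37.2 FPKM, Rps15a at 57.5 and Rpl3l at 0.362. Rps15a summed with the pseudogene rows Rps15a-ps4 and Rps15a-ps6 was at 139 to 245 FPKM over the 8 libraries. How reads were split between such copies is not given, so the row of Rps15a alone is uncertain. The genes not tested were the paralogues Rpl10l and Rpl39l, listed at 0 in every library, and Rps4l, listed at 0 except for 0.0586 FPKM in DM_HYP A. Their parents were well expressed, Rpl10 at 806 to 2003 FPKM, Rpl39 at 1383 to 2778 and Rps4x at 1044 to 2707.

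RefSeq promoter windows (build GRCm38.p6, which is not the build of the files) were matched by symbol to 60 of the 81 genes, 58 of them tested, with 70 windows for the tested genes. The 40 bases around the annotated start, 20 on each side, were searched on both strands for 3 short pyrimidine runs such as a TOP sequence holds. They were CTTTC, its near neighbour CTTTT, and the run CTCTT, which can overlap the first. In the direction of transcription at least 1 of the 3 was found in 26 of the 70 windows (37.1%), against 13.5% of all 32851 windows. On either strand the shares were 42.9% and 25%. In the direction of transcription CTTTC was in 25.7% of the members' windows against 5.49% of all, CTCTT in 21.4% against 5.52% and CTTTT in 10% against 4.34%. The motif CCGGAAG, searched on both strands in the 250 bases upstream, was in 25.7% against 6.91%, and TATAAA in 4.29% against 12.4%. These are descriptions of letters near annotated starts, not of mapped starts.

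Windows of 60 bases, 40 before and 20 after the start, are shown for genes named in the results because they differ at the start. Capitals mark the 3 pyrimidine runs in the first 6 and CAGCTG in the last. Rpl35, Rpl38 and Rps25 moved apart from the other members, Rpl28 and Rps9 fell on differentiation, and Rpl7a is among the interactions. Rpsa and Rpl10 show none of the 3 pyrimidine runs in their start window. Rpl3l is the muscle paralogue.
Rpl35 (chr2:39005112-39005171, minus strand): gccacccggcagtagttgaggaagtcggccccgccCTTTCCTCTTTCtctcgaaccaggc
Rpl38 (chr11:114668540-114668599, plus strand): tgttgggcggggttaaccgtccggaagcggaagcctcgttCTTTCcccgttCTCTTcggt
Rps25 (chr9:44407674-44407733, plus strand): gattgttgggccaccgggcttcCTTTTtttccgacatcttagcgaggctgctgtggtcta
Rpl28 (chr7:4792925-4792984, plus strand): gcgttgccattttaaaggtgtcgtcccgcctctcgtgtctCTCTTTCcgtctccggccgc
Rps9 (chr7:3704001-3704060, plus strand): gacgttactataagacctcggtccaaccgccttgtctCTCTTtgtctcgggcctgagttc
Rpl7a (chr2:26910767-26910826, plus strand): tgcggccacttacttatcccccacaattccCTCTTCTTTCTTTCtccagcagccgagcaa
Rpsa (chr9:120127726-120127785, plus strand): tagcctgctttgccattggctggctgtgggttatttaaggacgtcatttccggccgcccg
Rpl10 (chrX:74270776-74270835, plus strand): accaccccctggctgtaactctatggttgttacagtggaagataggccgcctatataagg
Rpl3l (chr17:24727786-24727845, plus strand): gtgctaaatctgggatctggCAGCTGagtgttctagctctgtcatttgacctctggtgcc
The median log2 changes of the 26 tested genes with a run and of the 32 without one are given as a description. They were -0.33 and -0.38 on normoxic differentiation, -0.56 and -0.50 on hypoxic differentiation, 0.48 and 0.46 for hypoxia in growth medium, 0.20 and 0.29 for hypoxia in differentiation medium, and -0.32 and -0.16 for the interaction. CAGCTG, an E-box of the kind that myogenic factors bind, was in 3 of the 70 windows over their whole 300 bases (4.29%), against 16.3% of all windows.

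Hypoxia in growth medium went with higher levels across the family. Relative to GM_NOR, 36 of the 78 tested genes rose in GM_HYP (46.2%, against a background of 13.5% of all tested genes called higher). By limma, 0 were called lower, at an adjusted or an unadjusted p under 0.05, against 28% of all tested genes called lower, and 52 were higher at an unadjusted p under 0.05. The median log2 change of FPKM + 1 was 0.45, a rise of 36.5% for the median gene, while that of all tested genes was -0.14. Both GM_HYP libraries lay above both GM_NOR libraries for 69 genes, and below them for 1. Overlap was not counted over all tested genes in this or the other comparisons, so such counts describe the members alone. The large and small subunits had medians of 0.44 and 0.45, with 21 of 47 and 15 of 31 genes called higher.

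The stalk genes, whose proteins recruit elongation factors to the ribosome, rose together. Rplp1 was at 5178 and 4517 FPKM in GM_NOR A and B and at 7534 and 8012 in GM_HYP, a log2 change of 0.68 ± 0.17 (SE, adjusted p = 0.0182). Rplp0 went from 2301 and 1939 FPKM to 2828 and 3047 (0.47 ± 0.12, adjusted p = 0.0201). Rplp2 went from 1548 and 1519 FPKM to 2136 and 2227 (0.51 ± 0.13, adjusted p = 0.0181). No stalk gene overlapped between the groups. Leaving out 1 library at a time ended these calls for 5, 5 and 6 of the 8 libraries, with the highest adjusted p without GM_HYP B (0.118, 0.134 and 0.11).

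Among the genes called higher without overlap, the largest rises included those of Rpl22, a large subunit protein that mouse cells can do without, and of Rps24, of the small subunit. Rpl22 was at 166 and 168 FPKM in GM_NOR and at 309 and 310.0 in GM_HYP, a log2 change of 0.89 ± 0.18 (adjusted p = 0.00904). Rps24 was at 1323 and 1254 FPKM, then 2116 and 2130 (0.72 ± 0.16, adjusted p = 0.0123). In each the 2 hypoxic libraries lay close together and well above the normoxic ones. Without GM_HYP B both calls were lost (adjusted p = 0.0539 and 0.0723). They were also lost without GM_HYP A (0.0541 and 0.0712) or GM_NOR A (0.0523 and 0.0502), and that of Rps24 without GM_NOR B (0.0583).

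Other members, named for their known roles, varied. Rps19, the gene most often mutated in Diamond-Blackfan anaemia, rose from 1056 and 946 FPKM to 1431 and 1509 (0.56 ± 0.14, adjusted p = 0.017). Rpl5, which with Rpl11 and the 5S RNA binds Mdm2, rose from 529 and 503 FPKM to 752 and 761 (0.55 ± 0.16, adjusted p = 0.035), and Rpl13a from 864 and 727 to 1192 and 1241 (0.62 ± 0.16, adjusted p = 0.0205). Rpl11 was at 1418 and 1191 FPKM, then 1538 and 1661, and was not called (adjusted p = 0.128). Neither were Rps6, the substrate of the S6 kinases (log2 change 0.23, adjusted p = 0.163), and Rpsa, the laminin receptor protein of the small subunit (0.18, adjusted p = 0.363). Rps2 was the member whose libraries lay lower in hypoxia without overlap, 716 and 577 FPKM against 539 and 561 (-0.23, adjusted p = 0.16). The calls of Rps19, Rpl5 and Rpl13a were lost for 3, 6 and 5 of the 8 libraries left out, with the highest adjusted p without GM_HYP B (0.102, 0.139 and 0.107).

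The direction held under each scaling tried, and the count of called members moved with the library left out. How many of all tested genes were called under each alternative was not counted, in this or the other comparisons. A loss of calls common to the whole table therefore cannot be told apart from 1 particular to the members. The members' median was 0.58 with 40 genes called higher after median-of-ratios scaling (all-gene median -0.03), and 0.65 with 49 genes after upper-quartile scaling (0.02). Without GM_HYP B 0 genes were called higher at a median of 0.40, with 21 higher at an unadjusted p under 0.05. Without GM_HYP A the count was 3, without GM_NOR A or B 16 or 5, without either DM_NOR library 12 and without either DM_HYP library 59.

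**Figure D2:**
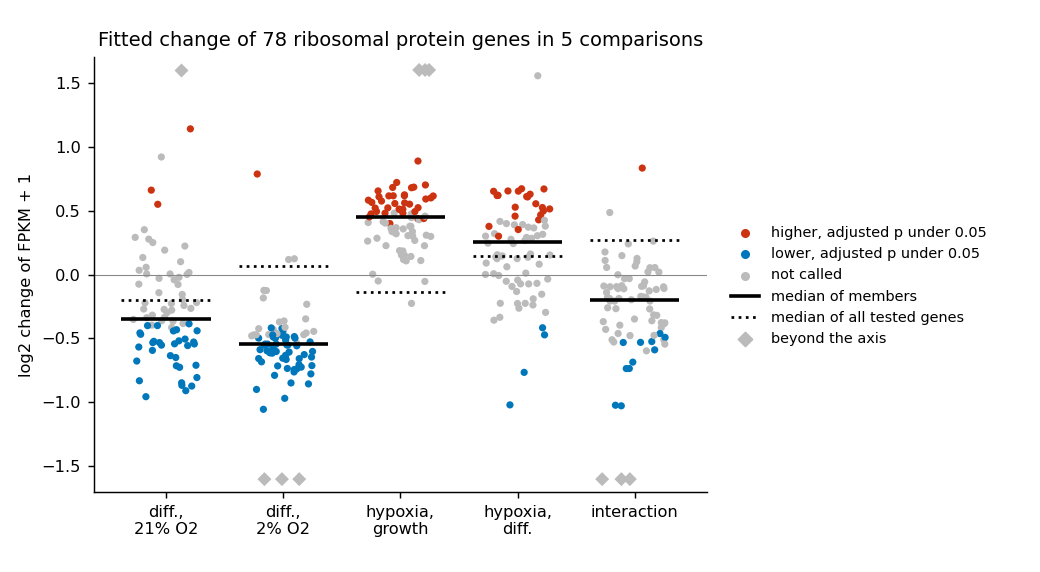
Fitted log2 change of FPKM + 1 (vertical axis) of each of the 78 tested ribosomal protein genes in 5 comparisons; red and blue points passed an adjusted p of 0.05, grey points did not, solid lines are the members' median and dotted lines the median of all tested genes. The members' median is 0.45 for hypoxia in growth medium and -0.54 for differentiation at 2% oxygen, on the far side of 0 from the dotted lines at -0.14 and 0.07; diamonds mark genes beyond the axis.

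Differentiation medium at 2% oxygen went with lower levels. Relative to GM_HYP, 53 of the 78 genes fell in DM_HYP (67.9%, against 17.6% of all tested genes called lower) and 1 rose (background 23.3% called higher). The median log2 change was -0.54, a fall of the median gene by 31.4%, while the median of all tested genes was 0.07. Both DM_HYP libraries lay below both GM_HYP libraries for 71 genes and above them for 3. The medians of the large and small subunits were -0.54 and -0.60, with 30 and 23 genes called lower.

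Rpl10, which is loaded late and lets the subunits join, had the largest fall among the genes called lower; larger fitted falls of Rpl26, Rps27 and Rpl34, whose replicates differed widely, were not called. It was at 1949 and 2003 FPKM in GM_HYP A and B and at 1123 and 806 in DM_HYP, a log2 change of -1.05 ± 0.16 (adjusted p = 0.00325). Rps20 went from 3496 and 3570 FPKM to 1972 and 1653 (-0.97 ± 0.13, adjusted p = 0.00209). Rpl28 went from 1768 and 1869 FPKM to 1064 and 893 (-0.90 ± 0.12, adjusted p = 0.0019). The groups stood far apart in these genes, and DM_HYP A lay above DM_HYP B in each. Their calls held in the 15 alternatives run, with adjusted p-values up to 0.041, 0.0346 and 0.0298. The stalk genes fell too, Rplp0 from 2828 and 3047 FPKM to 1847 and 1883 (-0.65 ± 0.12, adjusted p = 0.00666), Rplp1 by 0.55 on the log2 scale (adjusted p = 0.0402) and Rplp2 by 0.42 (adjusted p = 0.0362). Rplp1 and Rplp2 lost their calls in 13 of the 15 alternatives (adjusted p up to 0.198 and 0.177, without GM_HYP B), and Rplp0 in 2 (0.0631 without GM_HYP B). Rps6 went from 742 and 763 FPKM to 522 and 435 (-0.66 ± 0.12, adjusted p = 0.00558), a call that held in the 15 alternatives.

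Rps27l went the other way. This paralogue of Rps27 is a known target of p53. It was at 256 and 252 FPKM in GM_HYP and at 420 and 458 in DM_HYP, a log2 change of 0.79 ± 0.08 (adjusted p = 0.000803). In normoxia it went from 223 and 211 FPKM to 341 and 346 (0.66 ± 0.08, adjusted p = 0.000359). Both rises held in the 15 alternatives run, with adjusted p-values up to 0.0181 and 0.00555. The 4 libraries in differentiation medium lay above the 4 in growth medium, whatever the oxygen.

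The fall in hypoxia held in direction under each scaling, with a median of -0.60 after either rescaling (42 genes called lower by median-of-ratios, 44 by upper quartile). Its size depended on which DM_HYP library was used. DM_HYP A lay above DM_HYP B for 75 of the 78 genes, by a median of 0.35 on the log2 scale. Over all tested genes the median of A minus B was -0.09, in the other direction. The cell cycle sum given above differed between the same libraries. The median was -0.73 with 69 genes called lower without DM_HYP A, and -0.36 with 39 genes without DM_HYP B. Without GM_HYP A or B the count was 15 or 8 genes at medians of -0.57 and -0.52, and a fit of these 4 libraries alone called 11 lower. This comparison and that of hypoxia in growth medium share the GM_HYP libraries, whose mean was the highest of the 4 groups for 71 of the 78 genes. The same count was not made over all tested genes.

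Differentiation in normoxia moved the family less than the counts alone would show. Relative to GM_NOR, 33 of the 78 genes fell in DM_NOR (42.3%), which is near the 41% of all tested genes called lower, and 3 rose (25.5% of all were called higher), or 2 without Rpl3l, which passed the filter on low values through DM_NOR alone. The median log2 change was -0.34, with -0.20 for all tested genes. Both DM_NOR libraries lay below both GM_NOR libraries for 54 genes and above them for 9. After median-of-ratios scaling the members' median was -0.07 (all genes 0.02) and 7 genes were called lower, with 5 called higher. After upper-quartile scaling it was -0.19 (all genes -0.07) with 12 lower. Without DM_NOR A or B 10 or 14 genes were called lower, and without GM_NOR A 14.

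A smaller set fell whatever the scaling. Rpl7, of the large subunit, was at 1832 and 1606 FPKM in GM_NOR and at 886 and 883 in DM_NOR, a log2 change of -0.96 ± 0.15 (adjusted p = 0.00117). Rpsa went from 1709 and 1294 FPKM to 809 and 775 (-0.91 ± 0.15, adjusted p = 0.00171). Rps9 went from 1813 and 1566 FPKM to 913 and 928 (-0.87 ± 0.15, adjusted p = 0.00177). In these 3 the DM_NOR libraries agreed closely and lay far below GM_NOR, and the calls held in the 15 alternatives run (adjusted p up to 0.0176, 0.0208 and 0.0284). Rplp0 belonged with them, from 2301 and 1939 FPKM to 1194 and 1181 (-0.83 ± 0.12, adjusted p = 0.000949, up to 0.0152). Rplp1 (-0.52, adjusted p = 0.0316) and Rplp2 (-0.53, adjusted p = 0.00872) fell on the deposited scale and were no longer called when scaled by median-of-ratios (adjusted p = 0.374 and 0.231, over all alternatives 0.0102 to 0.379 and 0.00105 to 0.236).

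Rpl35, a large subunit protein near the exit of the peptide tunnel, rose in normoxic differentiation. It was at 2151 and 1901 FPKM in GM_NOR and at 2861 and 3063 in DM_NOR, a log2 change of 0.55 ± 0.13 (adjusted p = 0.00846). Without DM_NOR B the change was 0.50 and the call was lost (adjusted p = 0.0735). The highest Rpl35 libraries of the series were those of DM_NOR, the group whose mean was lowest for 52 of the 78 genes. How often that group is lowest among all tested genes was not counted.

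Rpl3l, the paralogue that replaces Rpl3 in ribosomes of heart and skeletal muscle, was detected at about 1 FPKM in DM_NOR. It was at 0 and 0.0575 FPKM in GM_NOR, 1.16 and 1.37 in DM_NOR, 0 and 0.0615 in GM_HYP, and 0.155 and 0.0817 in DM_HYP. The log2 change of FPKM + 1 on normoxic differentiation was 1.14 ± 0.09 (adjusted p = 6.83e-05). The gene passed the filter through DM_NOR alone, so that it had to differ there. In the main fit, the counts of called genes that hold it are also given without it. Counts under the alternatives and relative to the members' median were not recounted without Rpl3l. Its parent Rpl3 was at 1225 and 1095 FPKM in GM_NOR and 976 and 983 in DM_NOR (-0.24, adjusted p = 0.203), far above Rpl3l per length. The window shown above, at 1 of its 2 annotated starts, holds CAGCTG starting 20 bases before the start, and the window at the other start holds none. The muscle marker sum given above was highest in the same libraries.

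Hypoxia in differentiation medium gave a mixed picture. Relative to DM_NOR, 22 of the 78 genes were higher in DM_HYP (28.2%, below the 37.5% of all tested genes called higher) and 4 were lower (27.7% of all), or 3 without Rpl3l. The median log2 change was 0.26, with 0.15 for all tested genes. Both DM_HYP libraries lay above both DM_NOR libraries for 39 genes and below them for 9. After median-of-ratios scaling the median was 0.06 (all genes -0.01), with 2 genes called higher and 7 lower. Without DM_HYP A the median was 0.06 with 15 higher and 11 lower, and without DM_HYP B it was 0.42 with 46 higher and 3 lower. Without DM_NOR A or B 5 or 7 genes were called higher.

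Among the genes called higher without overlap, the largest rises were those of Rpl27a, Rpsa and Rpl37a. Rpl27a, of the large subunit, was at 371 and 423 FPKM in DM_NOR and at 770.4 and 517 in DM_HYP (0.67 ± 0.18, adjusted p = 0.0161). Rpsa went from 809 and 775 FPKM to 1333 and 1190.5 (0.67 ± 0.15, adjusted p = 0.00699). Rpl37a went from 720.1 and 797 FPKM to 1361 and 1045 (0.65 ± 0.15, adjusted p = 0.00723). The groups did not overlap, and the calls were lost when libraries were scaled by median-of-ratios (adjusted p = 0.104, 0.0507 and 0.0719). Over their 15 alternatives the adjusted p ran from 0.000423 to 0.106, from 0.00283 to 0.0552 and from 0.00107 to 0.0738. Without DM_NOR A the calls of Rpl27a and Rpl37a were lost (0.105 and 0.0634), and without DM_NOR B that of Rpsa. Rplp0 was higher in DM_HYP by 0.65 ± 0.12 (adjusted p = 0.003) and kept its call in the 15 alternatives run.

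The genes called lower were Rpl35, Rps25 and Rps27a, besides Rpl3l, whose lower value the filter had fixed. Rpl35 went from 2861 and 3063 FPKM in DM_NOR to 1877 and 1616 in DM_HYP (-0.76 ± 0.13, adjusted p = 0.0019), a call that held in the 15 alternatives. Rps25, a small subunit protein needed by some viral internal ribosome entry sites, went from 1034 and 1072 FPKM to 842 and 685 (-0.47 ± 0.12, adjusted p = 0.0128). Rps27a, made as a fusion with ubiquitin, went from 853 and 864 FPKM to 743 and 556 (-0.42 ± 0.15, adjusted p = 0.0404). Without DM_NOR A or B the call of Rps25 was lost (adjusted p = 0.0597 and 0.0805), and Rps27a lost its call in 10 of 15 alternatives (up to 0.151, without DM_NOR B).

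**Figure D3:**
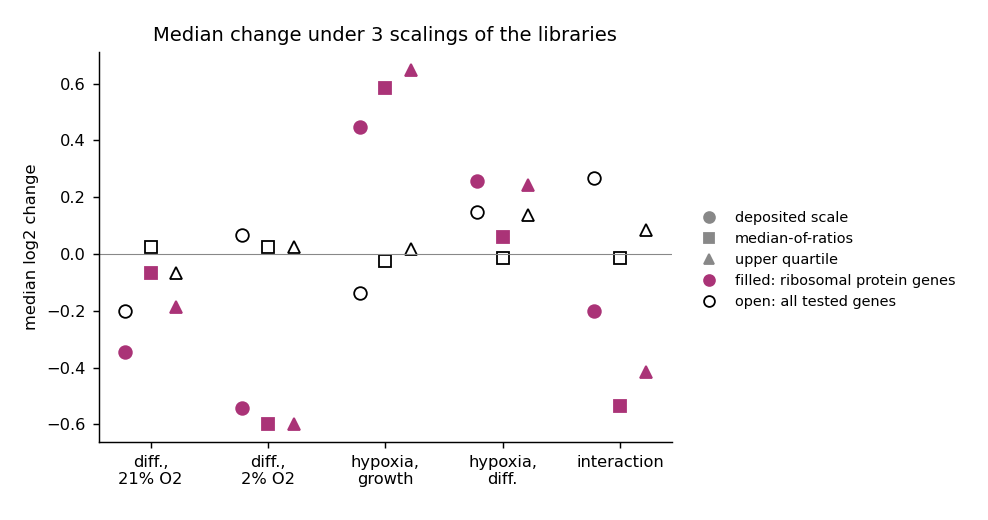
Median log2 change (vertical axis) of the 78 ribosomal protein genes (filled) and of all tested genes (open) in 5 comparisons under the deposited scale (circles), median-of-ratios (squares) and upper-quartile scaling (triangles). The members stay far from all genes for differentiation at 2% oxygen (-0.54 to -0.60) and hypoxia in growth medium (0.45 to 0.65), while for differentiation at 21% oxygen and hypoxia in differentiation medium the squares of the members, -0.07 and 0.06, come near 0.

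The interaction asks whether the change with differentiation medium differed between oxygen levels. It was the change in hypoxia minus that in normoxia, and 11 of the 78 genes had a lower value (14.1%, against 18.7% of all tested genes), or 10 without Rpl3l, and 1 a higher one (35.4% of all). The members' median was -0.20 and that of all tested genes 0.27. After median-of-ratios scaling the median was -0.53 (all genes -0.01) with 22 genes lower, and after upper-quartile scaling -0.42 (0.08) with 12 lower. Without DM_HYP A the median was -0.39 with 32 lower, and without DM_HYP B it was -0.00 with 8 lower. Removing either GM_HYP library or DM_NOR B left 2 genes lower, and removing DM_NOR A or GM_NOR B left 4.

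Among the called genes at 10 FPKM or more, Rpl35 had the largest negative interaction, -1.03 ± 0.18 (adjusted p = 0.00355), since it rose in normoxia and went from 2389 and 2461 FPKM to 1877 and 1616 in hypoxia. Rps27a followed at -0.74 ± 0.21 (adjusted p = 0.0218), and Rpl24, a large subunit protein that bridges to the small one, at -0.73 ± 0.21 (adjusted p = 0.0248). Rps2, at the entry of the messenger RNA channel, had the positive value, 0.83 ± 0.16 (adjusted p = 0.00518). It was at 716 and 577 FPKM in GM_NOR, 402 and 384 in DM_NOR, 539 and 561 in GM_HYP and 597 and 601 in DM_HYP, so that it was low in DM_NOR and level elsewhere. Rpl35 kept its call in the 14 alternatives run. Rps27a and Rpl24 lost theirs without GM_NOR B, either DM_NOR or either GM_HYP library (adjusted p up to 0.0792 and 0.0935), and Rps2 after median-of-ratios scaling (0.0553, range over its alternatives 0.00208 to 0.0585).

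Because these genes are abundant, a change shared by the family can move with the scale of a library. A second fit subtracted from each library the median log2 value of the tested members, so that it shows the members that left the others under any scaling. Relative to that median, 37 of the 78 genes changed on differentiation in normoxia (28 higher and 9 lower, where 34.5% of all tested genes were higher, 15.4% lower and 49.9% either). On differentiation in hypoxia 14 changed (7 and 7, with 52.4% of all higher, 2.77% lower and 55.2% either). For hypoxia in growth medium 20 did (13 and 7, with 4.59% of all higher, 42.5% lower and 47.1% either). For hypoxia in differentiation medium 39 did (12 and 27, with 17.1%, 30.1% and 47.2%), and for the interaction 22 (4 and 18, with 23.9%, 11.3% and 35.2%). The shares of all tested genes include shifts of every kind against the ribosomal protein median. After the subtraction the median of the members' fitted changes was still 0.12 on normoxic differentiation and -0.12 in the interaction. It was 0.0095 on hypoxic differentiation, and with hypoxia it was 0.054 in growth medium and -0.052 in differentiation medium. Uneven counts, such as 28 against 9 and 4 against 18, include this offset, and its part in them was not tested.

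Rpl35 and Rpl38 were among the members that left the others. Relative to the members' median, Rpl35 rose by 1.02 ± 0.07 on normoxic differentiation (adjusted p = 1.17e-05) and fell by 1.07 between DM_NOR and DM_HYP (adjusted p = 7.93e-06). Rpl38, known for its part in translating Hox messages, was at 1963 and 1728 FPKM in GM_NOR, 2150.3 and 2362 in DM_NOR, 2618 and 2818 in GM_HYP, and 2773 and 2242 in DM_HYP. Its level thus did not fall in differentiation medium in normoxia, where both DM_NOR libraries lay above GM_NOR, and in hypoxia the libraries of the media overlapped. Relative to the median Rpl38 rose by 0.76 ± 0.07 in normoxia (adjusted p = 4.41e-05) and by 0.43 ± 0.07 in hypoxia (adjusted p = 0.00191). Both windows shown above hold pyrimidine runs, as those of many members do. The calls of Rpl35 and Rpl38 held in the 12 alternatives run for this fit.

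Rps25, Rps27a and Rpl24 shared the course of Rpl35 in a milder form. Relative to the median they fell between DM_NOR and DM_HYP by 0.78, 0.72 and 0.67 (adjusted p = 5.27e-05, 8.57e-05 and 0.000242). They rose on normoxic differentiation by 0.57, 0.69 and 0.66 (adjusted p = 0.000339, 0.00012 and 0.00027). Both comparisons use the DM_NOR libraries.

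Relative to the median Rps27l rose on differentiation by 1.13 ± 0.15 in normoxia and by 1.34 ± 0.15 in hypoxia (adjusted p = 0.000442 and 0.000599). Rps2 rose on differentiation in hypoxia by 0.68 ± 0.13 (adjusted p = 0.00363) and fell with hypoxia in growth medium by 0.62 (adjusted p = 0.0057). With Rps2, the proteins that lagged behind the rise in GM_HYP were Rpl3, which reaches toward the peptidyl transferase centre (fell by 0.45, adjusted p = 0.00211), and Rpl8 (fell by 0.44, adjusted p = 0.00366). Rpl8 was at 1571 and 1336 FPKM in GM_NOR and 1365 and 1434 in GM_HYP. These levels overlap, where the family rose.

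On the falling side, Rpl7 fell relative to the median by 0.49 and Rps9 by 0.40 in normoxia (adjusted p = 0.000373 and 0.00116). Rpl10 fell by 0.50 and Rps20 by 0.41 in hypoxia (adjusted p = 0.00143 and 0.00291). The interaction of Rpsa was 0.57 (adjusted p = 0.0158) and that of Rpl7a 0.35 (adjusted p = 0.0282). Both were lost in several alternatives, without GM_HYP A at adjusted p = 0.0596 and 0.133. Rpsa also lost its fall in normoxia, -0.44 (adjusted p = 0.00678), without GM_NOR A (0.0614).

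**Figure D4:**
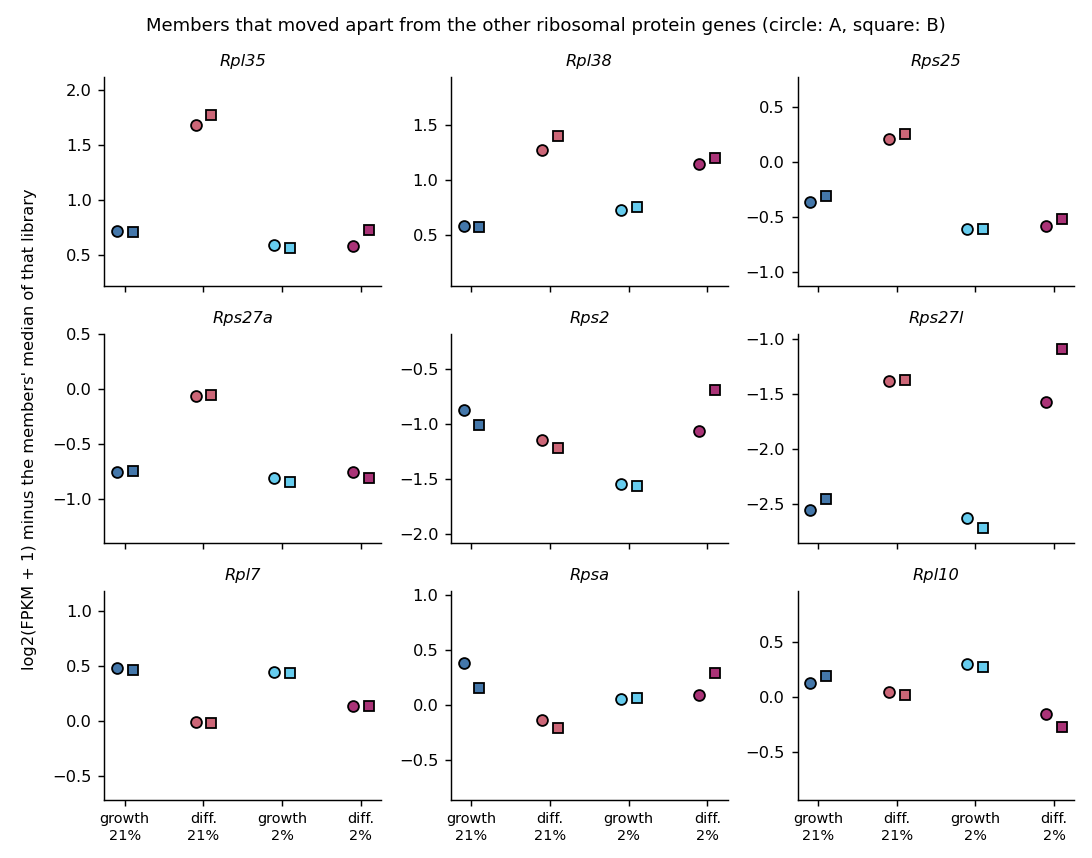
Values of 9 named ribosomal protein genes in each of the 8 libraries, as log2(FPKM + 1) minus the members' median of that library (vertical axes, which differ in position between panels); circles are replicate A and squares replicate B. Rpl35, Rps25 and Rps27a stand high in DM_NOR alone, Rps27l is high in both differentiation groups, and Rps2 is low in GM_HYP.

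Some rows could not be read alone. Between replicates, Rps27, Rpl34 and Rpl26 differed by over 2-fold in GM_NOR, DM_NOR and DM_HYP. Rpl30 did so in DM_NOR, at 28.02 and 63.2 FPKM. Rps27 was at 4.15 and 91.9 FPKM in GM_NOR, 7.49 and 78.7 in DM_NOR, 585 and 401 in GM_HYP and 671 and 7.69 in DM_HYP. The row Rps27rt, a retrogene copy of Rps27, was at 3314 and 2717, 2114 and 2127, 4011 and 4496, and 2616 and 2508 FPKM in the same order. Rps27rt held most of the sum of both rows in each library, from 79.6% in DM_HYP A to 99.9% in GM_NOR A.

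The sum of Rps27 and Rps27rt was 3319 and 2809 FPKM in GM_NOR, 2122 and 2206 in DM_NOR, 4596 and 4897 in GM_HYP, and 3288 and 2516 in DM_HYP. The sum followed the family in direction, though it was not called with hypoxia in differentiation medium (0.41, adjusted p = 0.0664). It fell by 0.50 on normoxic differentiation (adjusted p = 0.0347) and by 0.72 on hypoxic differentiation (adjusted p = 0.0151), and it rose by 0.64 ± 0.17 with hypoxia in growth medium (adjusted p = 0.0223). Rpl34 alone ran from 47.8 to 774 FPKM over the 8 libraries, while its sum with the pseudogene row Rpl34-ps1 ran from 1025 to 1584. That sum fell by 0.47 on hypoxic differentiation (adjusted p = 0.0341) and rose by 0.45 with hypoxia in growth medium (adjusted p = 0.0375). It was not called on normoxic differentiation (-0.04, adjusted p = 0.83) or with hypoxia in differentiation medium (0.02, adjusted p = 0.913). How the authors' counting split reads between such copies is not given in the sources used here, so the single rows are uncertain. Rpl26, with no copy named in the table, was at 0.00335 and 233 FPKM in GM_NOR, 22.7 and 459 in DM_NOR, 862 and 818 in GM_HYP, and 199 and 46.9 in DM_HYP, and was called in none of the 5 comparisons.

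**Figure D5:**
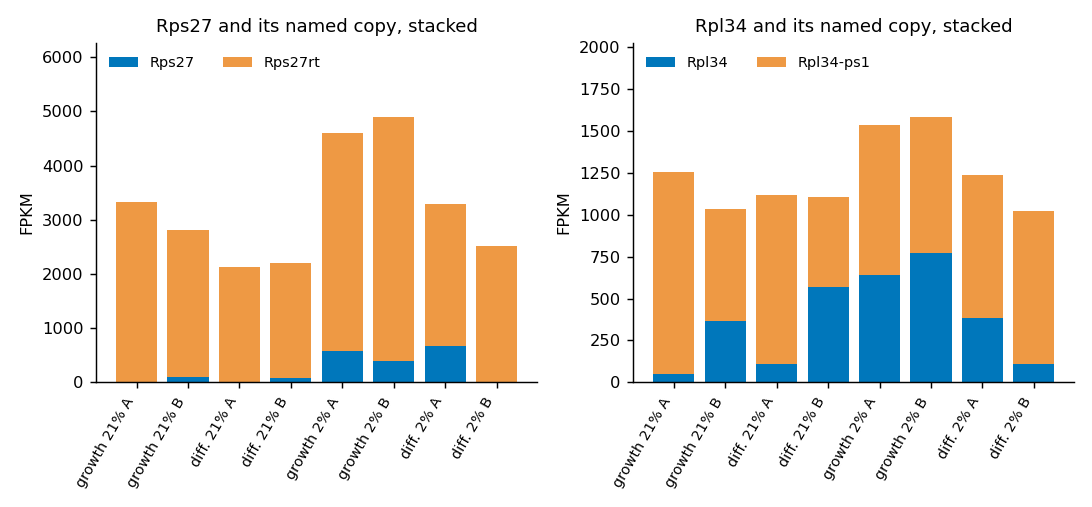
FPKM (vertical axes) of Rps27 stacked with its retrogene row Rps27rt, and of Rpl34 stacked with the pseudogene row Rpl34-ps1, in each of the 8 libraries. The blue part varies by over 2-fold between replicates of most groups, from 671 to 7.69 FPKM for Rps27 in DM_HYP, while the stacked height varies less, 3288 against 2516.

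Genes that build and serve the ribosome were counted in the same way, and each list is read against all tested genes. Of these 25.5% were called higher and 41% lower on normoxic differentiation, 23.3% and 17.6% on hypoxic differentiation, 13.5% and 28% for hypoxia in growth medium, and 37.5% and 27.7% for hypoxia in differentiation medium. Of 82 tested genes of ribosome assembly and rRNA processing, 67 rose (81.7%) and 4 fell on normoxic differentiation (median log2 change 1.03, against -0.34 for the ribosomal proteins and -0.20 for all genes). In hypoxia 33 rose (40.2%) and 4 fell on differentiation (median 0.31). Hypoxia went with 22 lower (26.8%, near the share of all genes) and 4 higher in growth medium (median -0.27) and with 65 lower (79.3%) and 3 higher in differentiation medium (-0.89). Npm1, the abundant nucleolar chaperone, was at 344 and 360.2 FPKM in GM_NOR, 249 and 244 in DM_NOR, 587 and 542 in GM_HYP, and 451 and 292 in DM_HYP. It fell on normoxic differentiation (-0.51, adjusted p = 0.0487) and rose with hypoxia in growth medium (0.68, adjusted p = 0.0277), the direction of most ribosomal proteins. Eif6, which keeps the new large subunit from joining too early, rose on normoxic differentiation from 63.7 and 52.7 FPKM to 136 and 135 (1.21 ± 0.14, adjusted p = 0.000355). The list's interaction was lower for 44 genes (53.7%, against 18.7% of all) and higher for 4. Without DM_HYP A 48 assembly genes rose on hypoxic differentiation and without DM_HYP B 24, and without either library 41 fell with hypoxia in growth medium, against 13 after upper-quartile scaling.

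The 77 proteins of the mitochondrial ribosome, which translates the few messages of the mitochondrial genome, had more falls where the cytosolic ones rose, and more rises where these fell, in the comparisons that involve GM_HYP. With hypoxia in growth medium 51 fell (66.2%, against 28% of all tested genes) and by limma 0 rose, with 1 higher at an unadjusted p under 0.05 (median -0.43). On hypoxic differentiation 46 rose (59.7%, against 23.3%) and 1 fell (median 0.46). After median-of-ratios and upper-quartile scaling the number that fell in growth medium was 35 and 29, and the median stayed negative at -0.30 and -0.24. On normoxic differentiation 32 rose (41.6%, against 25.5%) and 13 fell (4 after median-of-ratios scaling), and with hypoxia in differentiation medium 39 fell (50.6%, against 27.7%) and 13 rose. Mrpl52 went from 219 and 177 FPKM in GM_NOR to 124 and 122 in GM_HYP (-0.68 ± 0.11, adjusted p = 0.00385). Mrps21 went from 198 and 177 FPKM to 129.0 and 129.5 (-0.53 ± 0.09, adjusted p = 0.00439). The interaction, with 26 higher (33.8%, near the 35.4% of all) and 8 lower at a median of 0.21, turned to a median of -0.11 with 14 higher and 19 lower after median-of-ratios scaling.

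Among 41 initiation factors, 25 rose (61%, against 25.5% of all tested genes) and 8 fell on normoxic differentiation, and 27 fell (65.9%, against 27.7%) and 6 rose with hypoxia in differentiation medium (30 and 3 after median-of-ratios scaling). In growth medium 13 fell (31.7%, near the 28% of all) and 5 rose with hypoxia. That became 7 and 7 after upper-quartile scaling, and 17 and 9 without either DM_HYP library. On hypoxic differentiation 13 rose (31.7%, against 23.3%) and 7 fell. Eif5a rose on differentiation in normoxia (0.72, adjusted p = 0.00133) and in hypoxia (0.74, adjusted p = 0.00333). Eif1, which guards the choice of start codon, rose in normoxia by 0.94 ± 0.08 (adjusted p = 7.2e-05) and fell in hypoxia (-0.25, adjusted p = 0.0398).

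Of 12 elongation and release factors, 4 rose and 3 fell on normoxic differentiation and 2 rose and 2 fell with hypoxia in growth medium. On hypoxic differentiation 3 rose and 2 fell, and with hypoxia in differentiation medium 4 rose and 4 fell. In so short a list the balance moved with the setting. On hypoxic differentiation 4 rose and 6 fell without DM_HYP A, and 4 and 2 without DM_HYP B. With hypoxia in differentiation medium 1 rose and 4 fell after either rescaling, and 1 and 6 without DM_HYP A. On normoxic differentiation 4 rose and 1 fell after median-of-ratios scaling, and with hypoxia in growth medium 5 rose and 2 fell after upper-quartile scaling or without either DM_HYP library. The deposited-scale shares, 33.3% higher on normoxic and 25% higher on hypoxic differentiation, were near those of all tested genes (25.5% and 23.3%). The shares lower were 25% and 16.7%, against 41% and 17.6% of all. With hypoxia in growth medium 16.7% rose and 16.7% fell, against 13.5% and 28%. With hypoxia in differentiation medium 33.3% rose and 33.3% fell, against 37.5% and 27.7%. Eef1a1, which brings aminoacyl-tRNA to the ribosome and whose message is of the TOP type, was at 6222 and 5698 FPKM in GM_NOR, 4386 and 4375 in DM_NOR, 8703 and 8839 in GM_HYP, and 7132 and 5063 in DM_HYP. GM_HYP was highest and DM_NOR lowest, as for the share of the ribosomal proteins, and none of the 4 simple comparisons was called (adjusted p = 0.0551 to 0.0786). Tpt1, another TOP message, fell on hypoxic differentiation from 6121 and 6126 FPKM to 3884 and 3138 (-0.81 ± 0.15, adjusted p = 0.00622).

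Of 19 genes of RNA polymerase I, which makes ribosomal RNA, 9 rose (47.4%, against 25.5% of all tested genes) and 3 fell on normoxic differentiation, and 9 fell (47.4%, against 27.7%) and 2 rose with hypoxia in differentiation medium. On hypoxic differentiation 5 rose (26.3%, near the 23.3% of all) and 2 fell, with 8 and 3 without DM_HYP A and 3 and 2 without DM_HYP B. With hypoxia in growth medium 2 rose and 4 fell (21.1%, against 28%), a balance that turned to 2 and 1 after median-of-ratios and to 3 and 1 after upper-quartile scaling, and was 2 and 7 without either DM_HYP library. Polr2f, a subunit shared by the 3 nuclear polymerases, rose on normoxic differentiation by 0.49 (adjusted p = 0.0161), and Polr1d was not called there (0.03, adjusted p = 0.79). Of 26 genes of mTORC1 signalling and of TOP messages, 13 rose (50%, against 25.5% of all tested genes) and 10 fell (38.5%, against 41%) on normoxic differentiation. With hypoxia in growth medium 3 rose and 6 fell (23.1%, against 28%), and this balance turned to 4 and 3 after median-of-ratios and to 6 and 3 after upper-quartile scaling. On hypoxic differentiation 6 rose (23.1%, near the 23.3% of all) and 4 fell, and 10 rose without DM_HYP A. With hypoxia in differentiation medium 9 rose (34.6%, against 37.5%) and 12 fell (46.2%, against 27.7%), and 5 and 13 did after median-of-ratios scaling. Eif4ebp1, the translation repressor that mTORC1 inactivates, rose with hypoxia in growth medium from 121 and 91.7 FPKM to 302 and 321 (1.56 ± 0.13, adjusted p = 0.000307). It also rose on normoxic differentiation (1.73 ± 0.13, adjusted p = 5.19e-05). Cnbp, a protein that binds TOP messages, rose on normoxic differentiation from 117 and 115 FPKM to 291 and 293 (1.33 ± 0.07, adjusted p = 7.81e-06) and was at 128 and 123 in DM_HYP.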

How the data were processed

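RNA-seq of total RNA (500 ng, Trizol, Illumina stranded protocol, per the labels) gave 8 of the series' 24 samples; the H3K27me3 and input libraries were not analysed here. The submitters' processing notes name STAR 2.5.1b, Cufflinks 2.2.1 and mm9; annotation, strand use and scaling between libraries are not given in the sources used here. The authors deposited 1 table of 24043 symbols whose values behave as FPKM, although its name says counts, so no count test was run. Genes with a group mean of at least 1 FPKM (12389) were fitted with limma 3.58.1 (R 4.3.3) with an intensity trend on log2(FPKM + 1), a scale that understates changes of low genes. All 8 libraries shared 1 fit of 4 group means (4 residual and 2.61 prior degrees of freedom). Tests were two-sided, with Benjamini-Hochberg adjustment over the 12389 genes of each of 5 comparisons at 0.05. Scripts were tested on simulated data.

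Named genes were 10 members with known roles, the paralogue pairs, the untested members, and in each comparison and each fit up to 3 rises and 3 falls with the largest fitted change among members past the threshold, at 10 FPKM or more in the highest group and without overlap of libraries (for the interaction, the same sign in A and B). In each gene list the 2 most abundant genes were named. A result that this rule would name is in 2 cases not reported here. Rpl24 outside the interaction, Rpl8, Rpl26, Rpl30, Rpl34, Rps15a, Rpl41 and Rps15 were partly named after their values were seen. The members and lists were chosen with earlier results of these data known. The alternatives for the gene lists, and the counts without Rpl3l, were chosen after seeing the data. Alternatives were other scalings, pseudocount, filter, libraries in the fit, a replicate block and leaving out each library.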

Additional observations from a re-analysis of the deposited data

Results flagged for a closer look

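The change on differentiation differed between hypoxia and normoxia, by the interaction term in limma, for 12 of the 78 tested ribosomal protein genes, or 11 without Rpl3l, whose difference was fixed by the filter on low values. Of all tested genes 54.1% were called in either direction. The value is the log2 change in hypoxia minus that in normoxia. It was -1.03 for Rpl35 (adjusted p = 0.00355), -0.74 for Rps27a (0.0218), -0.73 for Rpl24 (0.0248), -0.68 for Rpl12 (0.0495) and -0.59 for Rps25 (0.0261). It was -0.53 for Rps13 (0.0199), -0.53 for Rps26 (0.0482), -0.52 for Rps7 (0.0487), -0.49 for Rpl37 (0.0498) and -0.46 for Rpl31 (0.0343). Rps2 had 0.83 (0.00518). Rpl3l had -1.02 (0.000945), and it was tested through its level in DM_NOR alone. The adjusted p of Rpl12, Rps26, Rps7 and Rpl37 lay just under 0.05. Rps27a, Rpl24 and Rps2 lost their calls in some alternatives, as given above. For Rpl12, Rps25, Rps13, Rps26, Rps7, Rpl37 and Rpl31 this interaction was not followed under the alternatives. The share of members with a lower value, 14.1%, is under the 18.7% of all tested genes, and 1 member had a higher value, against 35.4% of all.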

How the results depend on the processing

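No named member changed sign while called under the alternatives run. For hypoxia in differentiation medium the balance of members called turned from 22 higher and 4 lower to 2 and 7 after median-of-ratios scaling. Of the 60 named gene results on the deposited scale, 16 kept their call in every alternative run, as did 20 of the 30 relative to the members' median. The 60 and the 16 include the results of Rpl3l, which the filter on low values had fixed, so their calls say nothing of robustness. Counts of members moved by over 1.5 times as follows, and calls among all tested genes were not counted under the alternatives. Normoxic differentiation had 5 members higher and 7 lower after median-of-ratios scaling, with the members in or out of the factors, and 12 lower after upper-quartile scaling. Hypoxic differentiation had 33 lower with no filter and 11 in a fit of the compared libraries. Hypoxia in growth medium had 18 higher with no filter, and 34 off the members' median in a fit of the compared libraries. Hypoxia in differentiation medium had these 2 higher with or without members in the factors, 12 higher after upper-quartile scaling, and 7 higher, 2 lower and 15 off the median in a fit of the compared libraries. The interaction had 0 higher by limma (1 at an unadjusted p under 0.05) and 22 lower after median-of-ratios scaling, 0 and 20 with members left out of the factors, and 6 lower and 14 off the median with no filter. The cause of these moves was not tested.

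The share of signal rose to 20.8% (GM_NOR) and 26.8% (GM_HYP) without small RNA genes, and to 21.9%, 17.2% and 28.6% (GM_NOR, DM_NOR and GM_HYP) without the 10 most abundant other genes, by construction.

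With 1 library left out the lone library of its group was assumed to vary like the other groups. Counts of members higher, lower and off the median then ran from 2 to 6, 10 to 48 and 24 to 47 on normoxic differentiation, and from 8 to 69 lower and 5 to 22 off the median on hypoxic differentiation (1 higher throughout). They ran from 0 to 59, 0 to 1 and 3 to 39 for hypoxia in growth medium, 5 to 46, 2 to 11 and 21 to 47 for hypoxia in differentiation medium, and 1 to 3, 2 to 32 and 6 to 34 for the interaction.

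The labels do not say whether the letters A and B pair libraries across groups. Over all tested genes the difference of A and B correlated between groups at -0.17 to 0.04, which cannot settle it. With the replicate block the interaction had 6 members lower, and the other counts stayed within 1.5 times, such as 46 lower on hypoxic differentiation and 31 higher with hypoxia in growth medium. Absolute depth is unknown, so no floor is given for genes listed at 0.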

Other observations

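Some ribosomal proteins and relatives have symbols that fall outside the naming rule. Fau, made as a ubiquitin-like protein fused to a small subunit protein, was at 1786 and 1428 FPKM in GM_NOR, 1597 and 1643 in DM_NOR, 2992 and 3210 in GM_HYP, and 2256 and 1899 in DM_HYP. It rose with hypoxia in growth medium by 0.96 ± 0.15 on the log2 scale (adjusted p = 0.00314) and fell on hypoxic differentiation (-0.58, adjusted p = 0.0225).

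The paralogue Rpl22l1 moved opposite to its parent in growth medium, a pair chosen after its values were seen. Rpl22l1 was at 243 and 252 FPKM in GM_NOR and at 117 and 92.9 in GM_HYP, a log2 change of -1.24 ± 0.20 (adjusted p = 0.00352), where Rpl22 rose by 0.89 ± 0.18 (adjusted p = 0.00904). In DM_NOR Rpl22l1 was at 166 and 192 FPKM and in DM_HYP at 153 and 103, and the difference between these groups was not called (-0.51, adjusted p = 0.062).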
